A study of Mus musculus with 4 samples.

Results

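Obesity was compared with leanness in muscle that lacked the glucocorticoid receptor (GR) in its fibers. Gene expression in gastrocnemius muscle of ob/ob GR-mKO mice was set against that of lean GR-mKO mice, with 1 library of pooled RNA on each side. Genes were kept where both GR-mKO libraries had at least 10 expected counts, which left 12807 of 22252 gene names. The other 9445 names had under 10 counts in 1 or both of these libraries, and 5134 of them were listed at 0 in both. The kept genes took 99.8% of the counts in lean and 99.9% in ob/ob GR-mKO mice.

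All mice were 7-week-old males on C57BL/6J, and RNA of 3 mice per group was pooled before sequencing. Lean GR-mKO mice were GR Flox+/+ Cre+/- Lep+/+, and ob/ob GR-mKO mice were GR Flox+/+ Cre+/- Lepob/ob, so both sides carried the floxed GR gene and the Cre. The floxed part is exon 3 of Nr3c1, which encodes the DNA-binding domain of GR, and Cre was driven by Acta1, the skeletal actin gene of the muscle fiber. Vessels, nerves, fibroblasts and immune cells of the muscle therefore kept the receptor. ob/ob mice lack functional leptin and become obese. Controls without Cre (GR Flox+/+ Cre-/-, termed GRfl/fl) were sequenced in the same way, lean and ob/ob, and their values are given beside those of the GR-mKO mice. With 1 library a group there is no replicate, so no difference was tested, and the 95% intervals below cover counting error only. Genes are described by levels, in counts per 1000000 after TMM scaling (a scaling that sets the typical gene equal between libraries), and by the log2 ratio of ob/ob to lean.

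The 2 GR-mKO libraries held 19897754 (lean) and 20949729 (ob/ob) expected counts. The 50 most abundant genes took 45.3% of the counts in lean and 48.3% in ob/ob GR-mKO mice. Myh4, mt-Co1, Atp2a1, Acta1 and mt-Nd4 together went from 15.4% to 18.9% of the counts. When counts were scaled to the library total alone (CPM), every log2 ratio came out lower by the same amount, 0.21, and the median of all kept genes was -0.20. With TMM that median was 0.0038. At least 2-fold higher in ob/ob GR-mKO mice were 411 genes (3.21% of those kept) and at least 2-fold lower were 588 (4.59%), so 41.1% of the genes past 2-fold were higher. With CPM these were 239 (1.87%) and 1032 (8.06%), and 18.8% were higher. The quartiles of all kept genes were -0.32 and 0.30 on the log2 scale. Each gene name carries 1 transcript ID, and of 8605 genes with at least 200 counts in a library, 55 were listed at 0 in another library. All 55 were among the 6277 with more than 1 protein-coding transcript, and 0 of the 2321 with a single one were, so values of genes with several transcripts may also reflect how reads were divided between transcripts. Levels printed for such genes may be closer to those of single transcripts than to sums over the gene.

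Labels were first held against 3 genes. Nr3c1 was at 120.3 in lean and 106 in ob/ob GRfl/fl mice, and at 62.3 in lean and 41.9 in ob/ob GR-mKO mice. Both GR-mKO libraries were thus below both GRfl/fl libraries, although the count covers the whole transcript and does not show exon 3 by itself. Fkbp5, a GR target that encodes a cochaperone of the receptor, stood at 21.2 in lean and 28.0 in ob/ob GR-mKO mice, against 85.6 and 110.3 in GRfl/fl mice. Lep, which encodes leptin, was at 5.47 in lean and 45.1 in ob/ob GR-mKO mice, a log2 ratio of 3.04 (95% counting interval 2.76 to 3.34). The ob allele is a nonsense mutation, so its transcript is still counted and its level does not type the mice.

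Skeletal muscle is built of fast and slow fibers, which differ in their myosin and troponin isoforms, in their calcium pumps and in how much they rely on mitochondria. The gastrocnemius of the mouse is mainly fast. Between the fibers lie capillaries, fibroblasts, nerve endings and resident macrophages, and the last of these carry MHC class II, an antigen display system described below. Glucocorticoids act on fibers by raising genes of protein breakdown and on immune cells by dampening inflammatory genes. Of 70 gene lists, 25 stood apart in ob/ob GR-mKO mice, either because their median log2 ratio differed by at least 0.3 from that of all genes or because at least 25% and at least 3 of their members were past 2-fold. This selection was made with TMM. With CPM the fast fiber, polyamine and potassium channel lists would not meet the rule, and the adipocyte markers would. Higher were lists of the contractile apparatus, calcium handling, the endplate, fatty acid oxidation, the tricarboxylic acid cycle and mitochondrial biogenesis. Lower were lists of antigen display, interferon response, macrophages, other blood and stromal cells, and cytosolic ribosomal proteins.

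**Figure D1:**
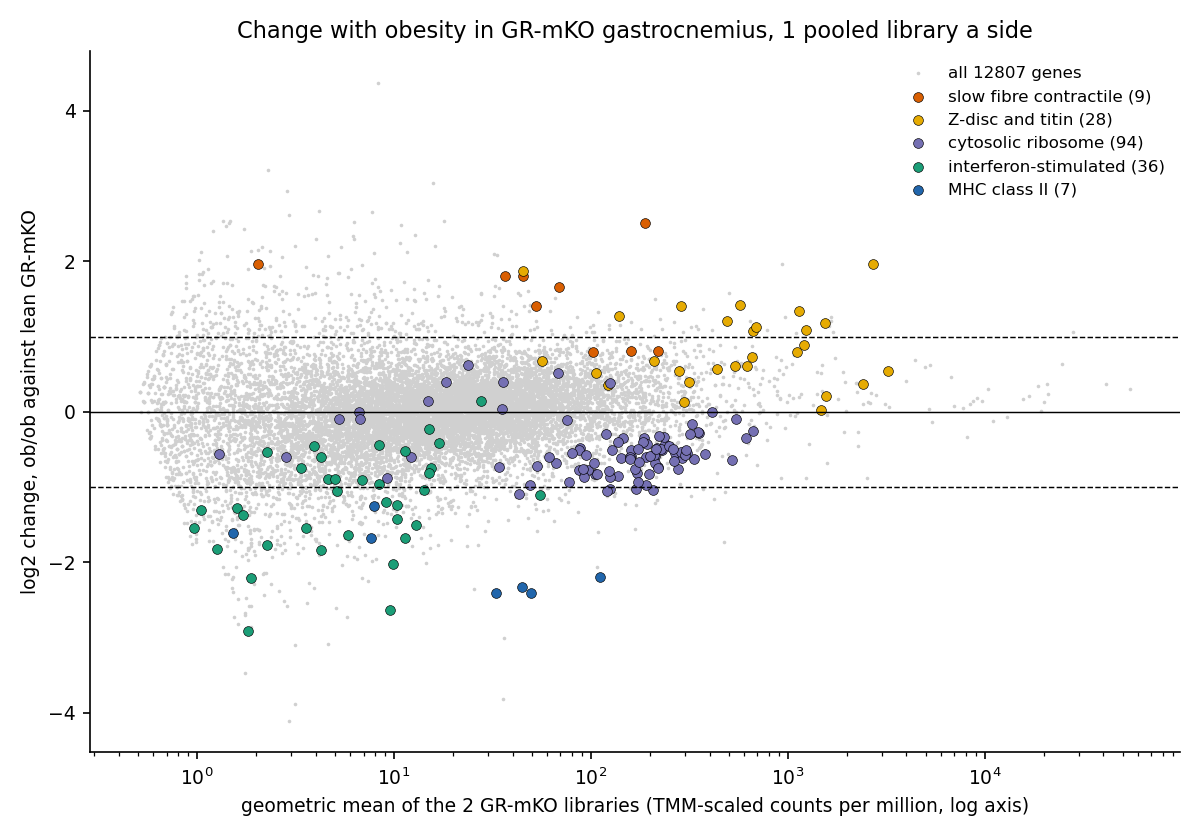
Each grey point is 1 of the 12807 kept genes, placed by the geometric mean of its level in the lean and ob/ob GR-mKO libraries (x axis, TMM-scaled counts per 1000000, log axis) and by its log2 ratio of ob/ob to lean (y axis), with dashed lines at 2-fold. The 9 slow fiber genes and 28 Z-disc genes lie above 0 and the 7 MHC class II genes lie below the lower dashed line, while most of the 94 ribosomal protein genes form a cloud between 0 and -1.

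Slow fiber contractile proteins were the list with the highest median. All 9 members were higher in ob/ob GR-mKO mice, 6 of them at least 2-fold against 3.21% of all genes, and the median log2 ratio was 1.66 (1.46 with CPM). Myh7, which encodes the myosin heavy chain of slow fibers (GRCm38 chr14:54970684-54994626, minus strand), was at 78.7 in lean and 448 in ob/ob GR-mKO mice, 5.70-fold higher. In GRfl/fl mice it was at 60.7 and 287, so both ob/ob libraries stood above both lean ones. The slow troponins followed the same order. Tnni1, the inhibitory subunit, was at 24.2 in lean and 84.7 in ob/ob GR-mKO mice, and Tnnt1, the tropomyosin-binding subunit, at 19.7 and 68.7. Tnnc1, the calcium-binding subunit, has a single protein-coding transcript and was at 32.2 and 85.3 (log2 ratio 1.41, interval 1.28 to 1.54). Tpm3, the slow tropomyosin, gave 1.66 on the log2 scale and Myh7b, a further slow myosin at a low level, 1.97. The smallest ratios were those of the slow myosin light chains Myl2 (0.81) and Myl3 (0.81) and of Myoz2 (0.79), a Z-disc protein that binds calcineurin. In bulk tissue, more slow fibers and more slow transcript per fiber cannot be told apart.

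The direction of fast fiber contractile proteins depended on the scaling. Of 13 members 11 were higher and 2 lower (7 and 6 with CPM). At least 2-fold higher were 4 (1 with CPM), none was 2-fold lower, and the median was 0.21, which was 0.0039 with CPM. Among the 4 were the 3 adult fast myosin heavy chains. Myh4, the IIB myosin, was at 19391 in lean and 40599.7 in ob/ob GR-mKO mice, the largest gain in level of any gene. In GRfl/fl mice it went from 22465 to 30227. Myh2, the IIA myosin, was at 472 and 1846 in GR-mKO mice (log2 ratio 1.97), and Myh1, the IIX myosin, at 767 and 1590.5 (1.05). These myosins are close paralogs, and the sharing of reads between them was not measured. Mybpc2, the fast myosin-binding protein C, was 1.54-fold and Actn3, the fast alpha-actinin, 1.38-fold higher. By contrast the fast light chain gene Myl1 was lower, at 9101 in lean and 7189 in ob/ob GR-mKO mice, and Pvalb, the calcium buffer of fast fibers, went from 11492 to 10547. Myl1 and Pvalb have short transcripts, at 803 and 953 bases, and the myosin heavy chains long ones, at 6016 bases for Myh4. Length moved with the ratios across all genes, as given with the ribosomal proteins, and its part in these differences was not tested.

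Proteins of the Z-disc, titin filament and costamere tie sarcomeres to one another and to the membrane. All 28 were higher in ob/ob GR-mKO mice (26 with CPM) and 11 were at least 2-fold higher (7 with CPM), with a median log2 ratio of 0.70. Ttn, the giant elastic filament, was at 1367 in lean and 5331 in ob/ob GR-mKO mice and at 1413 and 3793 in GRfl/fl mice. Myom3, an M-band protein with a single coding transcript, was 3.66-fold higher (23.6 to 86.2), and Lmod2, which caps and lengthens thin filaments, 2.43-fold (89.2 to 217). Flnc, the filamin of muscle, gave a log2 ratio of 1.42, and Actn2, the alpha-actinin of all fibers, 1.35. Des, the intermediate filament with the most counts of the list, was 1.46-fold higher. The 6 members with a single coding transcript had a median of 0.82. In each gene named in this paragraph, both ob/ob libraries lay above both lean libraries.

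Fetal and stress sarcomere proteins are silent or low in resting adult fibers and return with load, injury or denervation. Of 14 members 11 were kept, all 11 were higher (10 with CPM), and 3 were at least 2-fold higher (2 with CPM). Myh3, the embryonic myosin, was not kept and went the other way in GR-mKO mice, with 77.2 counts in lean and listed at 0 in ob/ob, against 22.1 and 142 counts in GRfl/fl mice. Ankrd1, a titin-bound stretch responder, was at 5.56 in lean and 24.2 in ob/ob GR-mKO mice, and at 3.48 and 24.6 in GRfl/fl mice. Myh8, the perinatal myosin, was 3.25-fold higher (2.52 to 8.17), and Xirp1, an actin-binding repair protein, 2.30-fold (174 to 399.5, under 2-fold with CPM). Actc1, the cardiac actin, did not share this, at 3171 and 3324 in GR-mKO mice (log2 ratio 0.068, or -0.14 with CPM). In GRfl/fl mice it was lower in ob/ob, at 797 and 323, and both GR-mKO libraries lay above both GRfl/fl libraries.

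Calcium release and reuptake genes set the speed of contraction and relaxation. Of 23 members 6 were at least 2-fold higher and none 2-fold lower (3 and 2 with CPM), 18 were higher at all, and the median was 0.63. The 2 slow-type members moved together with the slow myosin. Atp2a2, the calcium pump of slow and cardiac muscle, was at 126 in lean and 355 in ob/ob GR-mKO mice, and at 79.5 and 158 in GRfl/fl mice, so that the ob/ob GR-mKO library alone lay more than 2-fold above the other 3. Casq2, the cardiac and slow calsequestrin, was at 38.9 and 98.8 (29.8 and 68.7 in GRfl/fl mice). Ryr1, the calcium release channel, was 2.20-fold higher, from 1087 to 2391. Atp2a1, the fast calcium pump and the member with the most counts, went from 19761 to 30641, a log2 ratio of 0.63. Sln, which encodes sarcolipin, an inhibitor that uncouples these pumps, was at 2.47 in lean and 8.46 in ob/ob GR-mKO mice and at 0.650 and 1.19 in GRfl/fl mice.

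**Figure D2:**
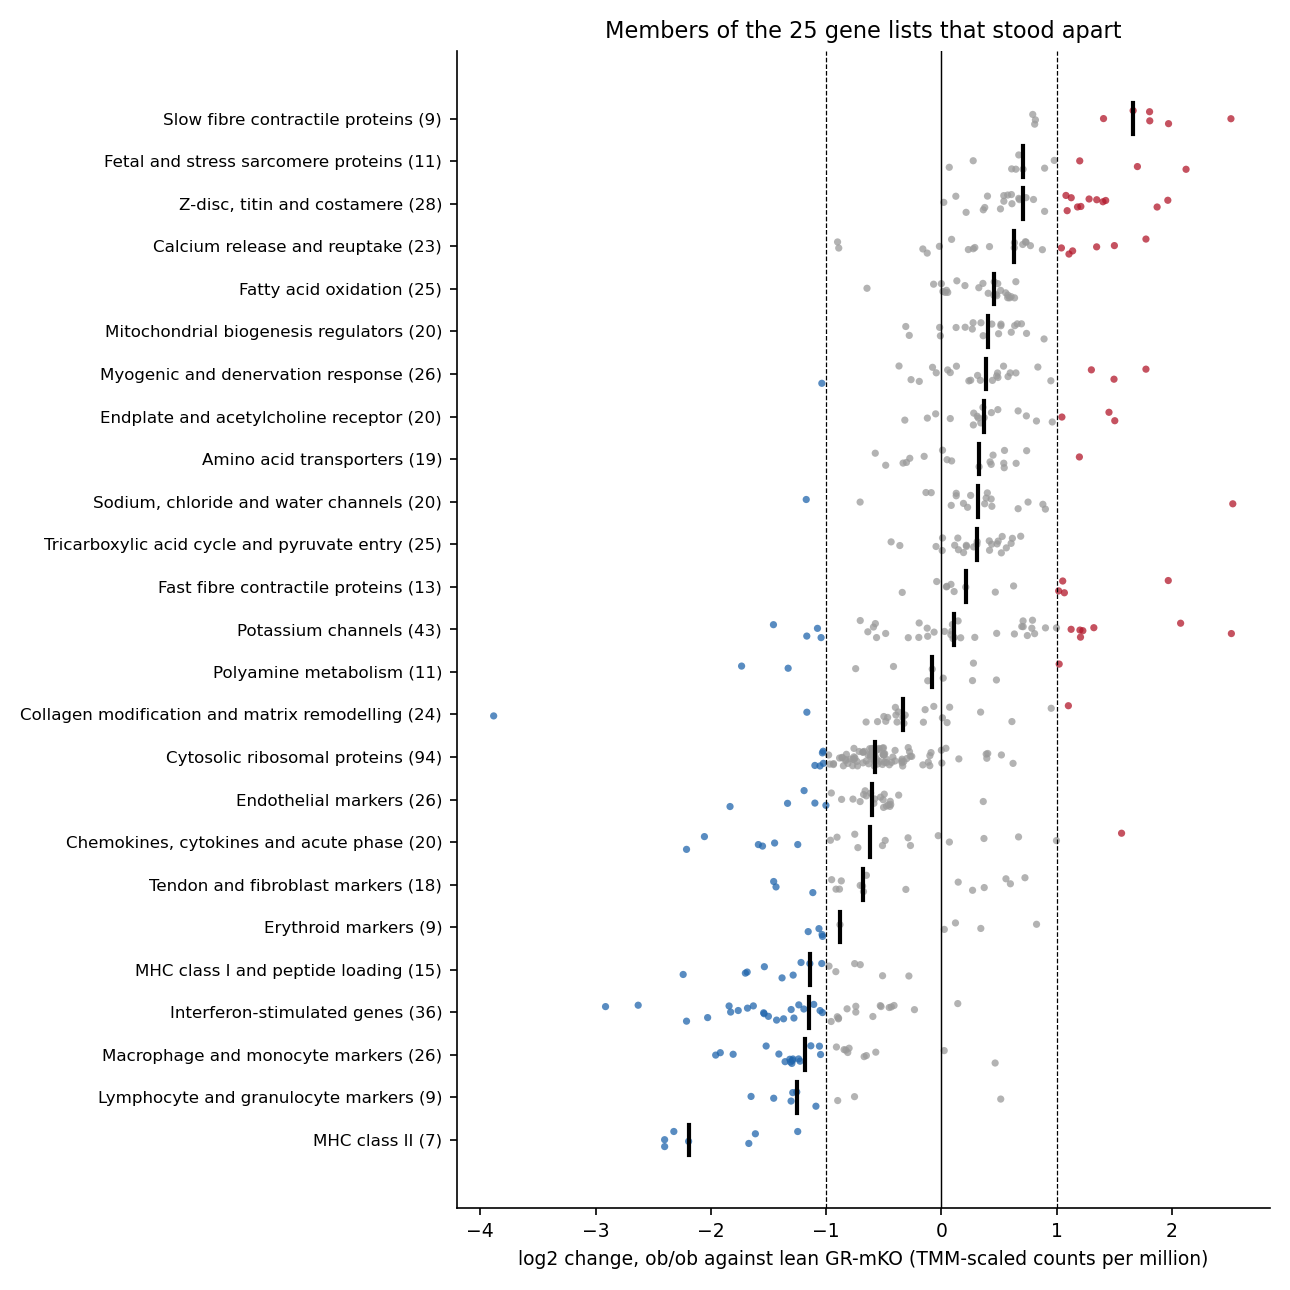
Log2 ratio of ob/ob to lean GR-mKO (x axis, TMM-scaled counts per 1000000) for each kept member of the 25 lists that stood apart, 1 row per list with the number of members in brackets. Red points are at least 2-fold higher, blue points at least 2-fold lower, and black bars mark medians, which run from 1.66 for slow fiber proteins to -2.19 for MHC class II.

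Genes of the neuromuscular endplate were higher on balance. Of 22 members 20 were kept, 17 were higher (16 with CPM), 3 at least 2-fold, and the median was 0.36. The receptor subunits Chrna1 and Chrnd showed it at very different counts. Chrna1 has a single coding transcript and was at 40.9 in lean and 79.7 in ob/ob GR-mKO mice, against 17.7 and 33.8 in GRfl/fl mice. Chrnd was at 3.88 and 10.6, its ob/ob GR-mKO library standing more than 2-fold above each of the other 3 (2.28 and 3.94 in GRfl/fl mice). Ache, the esterase that ends transmission, was 1.77-fold higher and Etv4, an ETS factor, 2.83-fold. Lean GR-mKO muscle already lay above lean GRfl/fl muscle for Chrna1 and for Ache (19.99 in lean GRfl/fl, 40.8 in lean GR-mKO mice).

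Myogenic and denervation response genes had a median of 0.39, with 20 of 26 kept members higher (17 with CPM), 3 at least 2-fold higher and 1 at least 2-fold lower. The 7 members with a single coding transcript had a median of only 0.076. Ncam1, an adhesion molecule that spreads over fibers when the nerve is lost, was at 6.89 in lean and 19.4 in ob/ob GR-mKO mice. Myog, the myogenic factor that responds to loss of innervation, was at 12.7 and 22.6, above both GRfl/fl libraries (5.94 and 7.84). Cdkn1a, which encodes the cell cycle inhibitor p21, was at 26.4 and 65.0 in GR-mKO mice and at 37.0 and 45.8 in GRfl/fl mice, where the ratio was 0.31 on the log2 scale. Calcr, the calcitonin receptor of quiescent satellite cells, was the member that was 2-fold lower (3.04 to 1.48). Markers of satellite cells summed to 15.1 in lean and 14.3 in ob/ob GR-mKO mice.

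Ion channels were mixed. Of 43 kept potassium channel genes 7 were at least 2-fold higher and 4 at least 2-fold lower (4 and 4 with CPM), and their median of 0.11 was -0.095 with CPM and -0.014 when the 50 most abundant genes were left out of the library size. Kcnn3, a calcium-activated channel that reappears in denervated fibers, was at 0.608 in lean and 3.47 in ob/ob GR-mKO mice (13 against 68 counts) and at 0.372 and 1.84 in GRfl/fl mice. Kcns1, a modifier of voltage-gated channels, was at 2.24 and 9.45 in GR-mKO mice and near 0 in both GRfl/fl libraries (0.325 and 0.199). Kcnc1, a fast voltage-gated channel, was at 53.3 and 116. Among sodium, chloride and water channels and pumps, with a median of 0.31, Atp1b4, a muscle protein of the sodium pump beta family, was at 2.61 and 15.0. Aqp7, the glycerol channel, was lower in ob/ob GR-mKO mice alone (13.3 to 5.90, against 10.1 and 10.4 in GRfl/fl mice).

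Most genes of fatty acid oxidation, the tricarboxylic acid cycle and mitochondrial biogenesis were higher by small steps. Of 25 fatty acid oxidation genes 22 were higher (16 with CPM), none reached 2-fold in either direction, and the median log2 ratio was 0.45. The ratios ran from -0.65 for Acad10, an acyl-CoA dehydrogenase family member, to 0.65 for Hadha. Hadha, the trifunctional protein subunit, was at 334 in lean and 522 in ob/ob GR-mKO mice, Acadm, the medium-chain dehydrogenase, at 204 and 307, and Slc25a20, the carnitine carrier, at 58.0 and 90.1. Of 25 genes of the tricarboxylic acid cycle and pyruvate entry 22 were also higher (16 with CPM), with a median of 0.31. Ogdh, a rate-setting dehydrogenase of the cycle, gave a log2 ratio of 0.69, Idh2 0.62 and Pdha1, of the pyruvate dehydrogenase complex, 0.53. Regulators of mitochondrial biogenesis and fusion had a median of 0.40, with 16 of 20 higher (14 with CPM). The 3 of these regulators with a single coding transcript had a median of 0.13. Ppargc1a, the coactivator that drives mitochondrial genes, was at 27.4 in lean and 45.7 in ob/ob GR-mKO mice and at 30.4 and 46.1 in GRfl/fl mice, and Mfn2, which fuses mitochondria, was 1.85-fold higher. Subunits of the respiratory chain divided by genome. Of the 13 encoded by the mitochondrial genome 12 were higher (8 with CPM), with a median of 0.24, while of the 36 nuclear subunits of complex I 29 were lower (33 with CPM), with a median of -0.12, and of the 42 of complexes II to V 32 were lower (37 with CPM), with a median of -0.21 and 0 of these 78 past 2-fold (the mitochondrial median was 0.035 with CPM).

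Amino acid transporters had a median of 0.33, with 13 of 19 higher (10 with CPM). The 6 members with a single coding transcript had a median of only 0.049. Slc43a2, a carrier of branched-chain and aromatic amino acids, was at 17.9 in lean and 41.0 in ob/ob GR-mKO mice, and Slc7a5, the leucine exchanger, at 6.45 and 10.8. Slc1a5, the glutamine carrier, went the other way (72.6 to 48.7).

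Polyamine metabolism, which makes spermidine and spermine, had 2 of 11 kept members at least 2-fold lower and 1 at least 2-fold higher (none with CPM). Amd1, the S-adenosylmethionine decarboxylase that supplies the aminopropyl groups, was at 868 in lean and 261 in ob/ob GR-mKO mice, 3.33-fold lower (log2 ratio -1.73, interval -1.78 to -1.69). In GRfl/fl mice it was at 1972 and 431. Smox, which oxidizes spermine, was at 136 and 54.3 in GR-mKO mice and at 327 and 106 in GRfl/fl mice. For both genes, the ob/ob library of each genotype was below its lean library, and the lean GRfl/fl library was the highest of the 4. Sms, which makes spermine, was higher (56.1 to 114). Amd1 has a close paralog, Amd2, in the mouse, and the division of reads between them was not measured.

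MHC class II, the antigen display system of macrophages, dendritic cells and B cells, was the list with the lowest median. All 7 members were at least 2-fold lower in ob/ob GR-mKO mice, against 4.59% of all genes, and the median log2 ratio was -2.19. H2-Aa, the alpha chain of I-A, was at 114 in lean and 21.6 in ob/ob GR-mKO mice (5.28-fold lower) and at 81.9 and 20.05 in GRfl/fl mice. Its partner H2-Ab1 was at 99.3 and 19.9, and Cd74, the invariant chain that guides class II through the cell, at 238 and 52.1. Both ob/ob libraries lay below both lean libraries for these genes, and the 2 ob/ob libraries were close to one another. Ciita, the transactivator on which class II transcription depends, was at 2.65 and 0.867, which is 57 against 17 counts.

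MHC class I and its peptide loading machinery, which nearly every cell carries, were lower in all 15 kept members of 17. Of these, 9 were at least 2-fold lower and the median was -1.14. B2m, the light chain common to class I molecules (GRCm38 chr2:122147686-122153083, plus strand), was at 231 in lean and 113 in ob/ob GR-mKO mice and at 239.8 and 152 in GRfl/fl mice. H2-T23, a nonclassical heavy chain, went from 27.0 to 11.1. The immunoproteasome subunits Psmb8 (-1.69 on the log2 scale) and Psmb9 (-1.70) and the peptide transporter Tap1 (-1.38) were lower too. Class I heavy chains are near-identical genes whose reads may have been divided between them, which was not measured. B2m has a single coding transcript.

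Interferon-stimulated genes are switched on when cells sense interferon, chiefly through transcription factors that bind a short repeat in the promoter, the interferon-stimulated response element. Of 42 such genes 36 were kept, 35 were lower (36 with CPM), 21 were at least 2-fold lower and none was 2-fold higher, with a median of -1.15. Ifi27l2a was at 23.8 in lean and 3.84 in ob/ob GR-mKO mice (log2 ratio -2.63, interval -3.003 to -2.28), and at 42.5 and 7.44 in GRfl/fl mice. Ifitm3, which blocks viral entry and had the most counts of the list, was at 81.2 and 37.7 in GR-mKO mice and at 77.3 and 47.9 in GRfl/fl mice. Isg15, a ubiquitin-like modifier, was at 2.38 and 0.669, which is 51 against 13 counts, and Oasl2 at 4.95 and 0.657. In both genotypes the ob/ob library was the lower for each of these genes. The 14 members with a single coding transcript had a median of -1.49, and 12 of them were at least 2-fold lower. Immunity-related GTPases, which act on vacuoles that hold pathogens, were uneven. Iigp1 was at 20.01 in lean and 4.91 in ob/ob GR-mKO mice. The other kept members of that family on the list, given after their values were seen, were within 2-fold, with Irgm1 at 13.6 and 9.43, Igtp at 16.2 and 13.8, and Irgm2, the 1 member of the list that was not lower, at 26.3 and 29.0.

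The response element was searched for as GAAA, any 2 bases, and GAAA again, on both strands, in RefSeq promoter windows of GRCm38.p6 from 250 bases before to 50 bases after each gene's start. Windows were at hand for 10109 of the kept genes, and 373 of them (3.69%) held the element. Among the 444 genes at least 2-fold lower in ob/ob GR-mKO mice 38 held it (8.56%), and among the 309 at least 2-fold higher 4 did (1.29%). The share was 7.26% among genes at least 1.5-fold lower and 2.06% among those at least 1.5-fold higher. Of the 27 interferon-stimulated genes with a window 17 held it, as did 4 of the 14 class I genes. Windows with the element upstream of the start were extracted for 17 genes of the 2 lists, 10 of them at least 2-fold lower and 7 within 2-fold. The 9 windows below, with the element in capitals, were chosen after the values were seen, 7 from the genes that were 2-fold lower and those of Igtp and Irgm2 from the genes that were not. Among the windows not shown, Stat2 (-0.43), H2-T22 (-0.70) and Rsad2 (-0.89) also belong to genes within 2-fold. All are upstream of the start and are written 5′ to 3′ on the strand of the gene.
Isg15, minus strand, chr4:156200850-156200921: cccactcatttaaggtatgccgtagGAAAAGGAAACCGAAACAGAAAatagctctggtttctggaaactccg
Ifit1, plus strand, chr19:34640760-34640838: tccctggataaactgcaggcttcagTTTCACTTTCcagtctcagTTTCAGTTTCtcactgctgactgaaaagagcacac
Bst2, minus strand, chr8:71537562-71537627: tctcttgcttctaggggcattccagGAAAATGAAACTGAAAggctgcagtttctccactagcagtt
Ddx60, plus strand, chr8:61928009-61928086: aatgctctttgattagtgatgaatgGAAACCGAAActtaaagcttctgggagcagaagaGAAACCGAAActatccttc
Gbp2, plus strand, chr3:142620579-142620638: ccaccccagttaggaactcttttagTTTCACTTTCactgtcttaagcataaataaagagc
Gbp7, plus strand, chr3:142530258-142530317: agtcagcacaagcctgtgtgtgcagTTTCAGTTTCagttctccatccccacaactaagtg
B2m, plus strand, chr2:122147523-122147582: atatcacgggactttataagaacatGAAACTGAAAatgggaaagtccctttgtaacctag
Igtp, plus strand, chr11:58199497-58199555: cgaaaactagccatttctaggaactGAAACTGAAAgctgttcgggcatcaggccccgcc
Irgm2, plus strand, chr11:58214888-58214947: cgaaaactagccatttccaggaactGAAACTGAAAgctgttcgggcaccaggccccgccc

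The log2 ratios that go with these windows were -1.83 for Isg15, -1.76 for Ifit1, -1.43 for Bst2, -1.30 for Ddx60, -1.68 for Gbp2 and -1.501 for Gbp7. For B2m the ratio was -1.04, for Igtp -0.23 and for Irgm2 0.14. Isg15 carries 3 overlapping matches, Ifit1, Bst2 and Ddx60 carry 2 each, and the other genes 1. B2m, Igtp and Irgm2 hold the same 10 bases, so the letters of the element alone did not sort genes that were lower from those that were not. Other motifs were also counted. The D-box TTATGTAA was in 71 of all windows (0.702%), in 7 of the 444 of genes 2-fold lower (1.58%) and in 3 of the 309 of genes 2-fold higher (0.971%). The heat shock element GAANNTTCNNGAA was in 58 (0.574%), 5 (1.13%) and 0. The estrogen-related receptor element TCAAGGTCA was in 31 (0.307%), 0 and 3 (0.971%). These shares rest on 7 windows or fewer and were not tested. The E-box CACGTG was in 11.6% of all windows, 10.4% of those of genes 2-fold higher and 6.98% of those of genes 2-fold lower, and the palindromic glucocorticoid response element was found in 1 window of the 10109. A match is a run of letters and not a bound site.

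Chemokines, cytokines and acute phase proteins had a median of -0.62, with 6 of 20 kept members at least 2-fold lower and 1 at least 2-fold higher. C3, the central complement component, was at 219.9 in lean and 52.9 in ob/ob GR-mKO mice and at 221 and 107 in GRfl/fl mice. Ccl11, the eotaxin made by stromal cells, went from 91.7 to 30.5 and Cxcl14 from 287 to 97.7. Cxcl9, the T cell attractant induced by interferon gamma, was at 4.02 and 0.868. Orm1, an acute phase protein, was the member that was higher (2.23 to 6.58).

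Macrophage and monocyte markers were lower in 24 of 26 kept members (25 with CPM), 16 of them at least 2-fold, with a median of -1.18. Csf1r, the receptor for their survival factor and 1 of their defining genes, was at 89.8 in lean and 36.1 in ob/ob GR-mKO mice, and C1qa, the complement recognition subunit they secrete, at 77.9 and 29.3. Ccr2, which marks monocytes that enter from blood, was at 11.2 and 2.97, and Folr2, a marker of resident macrophages, at 28.4 and 8.13. Adgre1, which encodes F4/80, had 15.4 and 6.00 in GR-mKO mice and 14.7 and 11.1 in GRfl/fl mice. The ob/ob GR-mKO library was the lowest of the 4 for Csf1r, C1qa, Folr2 and Adgre1. Lyz1, a lysozyme gene, was 3.89-fold lower, with reads that may be shared with its copy Lyz2. The defining set of Adgre1, Cd68, Csf1r, C1qa and Lyz2 summed to 462 in lean and 194 in ob/ob GR-mKO mice and to 373 and 257 in GRfl/fl mice. It moved with the class II and interferon lists, and its part in their ratios was not tested. Fewer macrophages and less of these transcripts per macrophage cannot be told apart here.

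Lymphocyte and granulocyte markers were mostly too low to keep, with 9 of 24 kept, 6 of these at least 2-fold lower and a median of -1.26. Ptprc, the pan-leukocyte CD45, was at 9.01 and 3.78 and Coro1a, a leukocyte coronin, at 13.8 and 5.03. Mast cell proteases gave Mcpt4 at 19.2 and 7.84. Ighm, the heavy chain of IgM, was higher in ob/ob GR-mKO mice (81.1 to 116) and lower in ob/ob GRfl/fl mice (59.4 to 25.3), although the defining lymphocyte genes Cd3e, Cd79a and Ms4a1 summed to only 0.747 in lean and 0.665 in ob/ob GR-mKO mice and Cd3e was listed at 0 in a library. Ighg2c, an IgG heavy chain, was at 1.03 and 7.87 in GR-mKO mice and at 0.139 and 0.249 in GRfl/fl mice, highest in the ob/ob GR-mKO library. Of the neutrophil genes S100a8, S100a9 and Ngp, Ngp was listed at 0 in a library and the sum was under 7 in each.

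Endothelial markers were lower in 25 of 26 members, 5 of them at least 2-fold (7 with CPM), with a median of -0.60. Aqp1, the water channel of capillaries and the member with the most counts, was at 886 in lean and 543 in ob/ob GR-mKO mice and at 888 and 583 in GRfl/fl mice. Robo4, an endothelial guidance receptor, was at 17.6 and 6.98, and Ly6c1 at 115 and 50.3. Sox17, an arterial transcription factor, was at 7.93 and 2.22, more than 2-fold below each of the other 3 libraries. The defining genes Pecam1, Cdh5, Kdr, Tek and Emcn summed to 462 and 319 in GR-mKO mice and to 404 and 344 in GRfl/fl mice.

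Tendon and fibroblast markers had a median of -0.68 in GR-mKO mice and -0.087 in GRfl/fl mice, with 3 of 18 at least 2-fold lower (7 with CPM). Dpt, a dermatopontin of interstitial fibroblasts, was at 192 in lean and 88.6 in ob/ob GR-mKO mice and at 185 and 129 in GRfl/fl mice. Clec3b, which encodes tetranectin, was at 107 and 39.1, and Gsn, gelsolin, at 3442 and 1864, the second largest loss of level after Myl1. For Dpt, Clec3b and Gsn alike the ob/ob GR-mKO library was the lowest of the 4. Of the 18 members 12 were lower and 6 were higher (5 with CPM, where Tnmd was lower), the latter all within 2-fold and among them the tendon genes Scx (9.28 and 15.3), Comp (21.5 and 32.5) and Tnmd (27.5 and 30.5). The defining set of Pdgfra, Dpt, Tnmd, Scx and Comp summed to 329 and 217 in GR-mKO mice and to 322 and 361 in GRfl/fl mice, with a median ratio of 0.15 in GR-mKO mice, so its sum and its median differ in sign.

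Matrix genes did not move as a block. Collagen modifying and matrix remodeling genes had a median of -0.33 in GR-mKO mice and 0.19 in GRfl/fl mice, and 1 of 24 was at least 2-fold higher (none with CPM) and 2 at least 2-fold lower. Mmp9, the gelatinase of myeloid cells, was at 12.1 in lean and 0.817 in ob/ob GR-mKO mice, or 258 against 16 counts, and at 14.4 and 3.66 in GRfl/fl mice. Serpinh1, the collagen chaperone, was at 197 and 125, whereas Lox, the enzyme that crosslinks collagen, was higher (35.1 and 75.3, with 32.0 and 121 in GRfl/fl mice). Of 36 kept collagens 7 were at least 2-fold higher and none 2-fold lower, but with CPM 3 were higher and 3 lower. Their median was -0.083 (-0.29 with CPM), and 19 of them were lower at all. The members that follow were chosen after their values were seen. Col1a1, the main fibrillar chain, was at 1174 and 2441 in GR-mKO mice and at 1232 and 4280.4 in GRfl/fl mice, where the ob/ob library was the highest of the 4. Col22a1, of the myotendinous junction, was at 16.2 and 68.7, and Tnc, tenascin C, at 3.08 and 19.3. Dcn, the small proteoglycan decorin, was lower instead (1248 and 679), as was Ogn (193 and 91.1).

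Erythroid markers, which come with the blood in the tissue, divided. Of 9 kept, 5 were lower, namely the 4 globin genes, each at least 2-fold, and Alas2 of heme synthesis, and 4 were higher (2 with CPM), all within 2-fold. Epb41, a membrane skeleton protein that other cells also make, was at 27.1 and 47.9 in GR-mKO mice and at 33.7 and 28.6 in GRfl/fl mice. Hbb-bs was at 695 in lean and 333 in ob/ob GR-mKO mice and at 777 and 352 in GRfl/fl mice. The defining genes Hba-a1, Hbb-bs, Hbb-bt, Alas2 and Slc4a1 summed to 1349.8 and 653 in GR-mKO mice and to 1495 and 696 in GRfl/fl mice. Each ob/ob sum was below the lean sum of its genotype, with the globins making up most of it, and the part of blood RNA in the leukocyte lists was not tested.

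**Figure D3:**
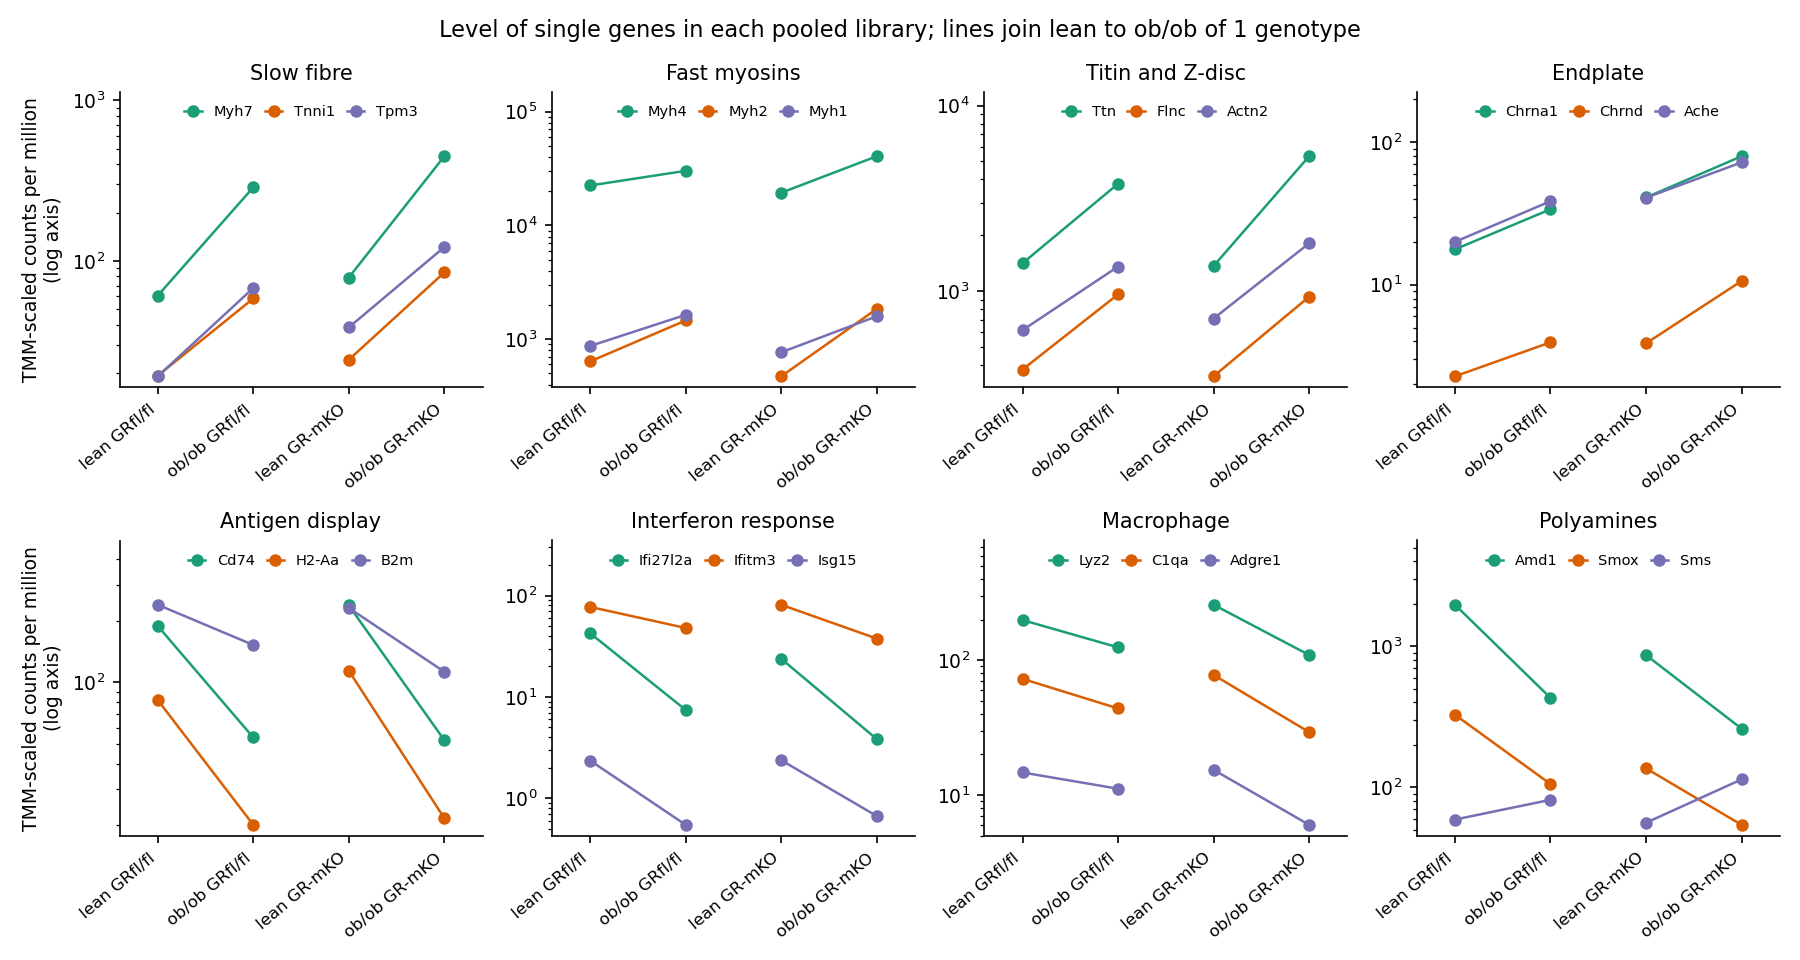
Levels of 24 genes in each of the 4 pooled libraries (y axis, TMM-scaled counts per 1000000, log axis), 1 panel per group of genes, with 1 point per library and lines from lean to ob/ob within a genotype. Lines of contractile and endplate genes run upward and those of antigen display, interferon and macrophage genes downward in both genotypes, while the polyamine panel holds 2 falling lines and a rising one.

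Cytosolic ribosomal proteins were lower together and by small steps. Of 104 genes 94 were kept, 86 were lower (89 with CPM), 5 at least 2-fold (17 with CPM), and the median log2 ratio was -0.58, close to the -0.56 of GRfl/fl mice. Rps16 has a single coding transcript and was at 295 in lean and 144 in ob/ob GR-mKO mice and at 278 and 159.7 in GRfl/fl mice. Rpl3, a core protein of the large subunit, was at 178 and 87.5, and Rplp0, the stalk protein with the most counts, at 731 and 611. Pseudogene copies such as Rps12-ps3 (-1.02) may share reads with their parents. Eef1a1 and Tpt1, whose mRNAs are translated under the same growth control as those of ribosomal proteins, were lower as well, at 1682 and 912 and at 1998 and 1244. The counted ribosomal transcripts are short, with a median of 771 bases. Among all kept genes the log2 ratio rose with transcript length (Spearman rho 0.22 across 12807 genes, which are not independent), from a median of -0.31 for 810 genes of up to 1000 bases to 0.17 for 636 genes above 8000 bases. The same medians in GRfl/fl mice were -0.37 and 0.16. Nuclear respiratory chain transcripts are also short, with median lengths of 745 bases for complex I and 722.5 for complexes II to V. The part of length in the ratios of ribosomal, globin, respiratory chain and sarcomere genes was not tested.

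**Figure D4:**
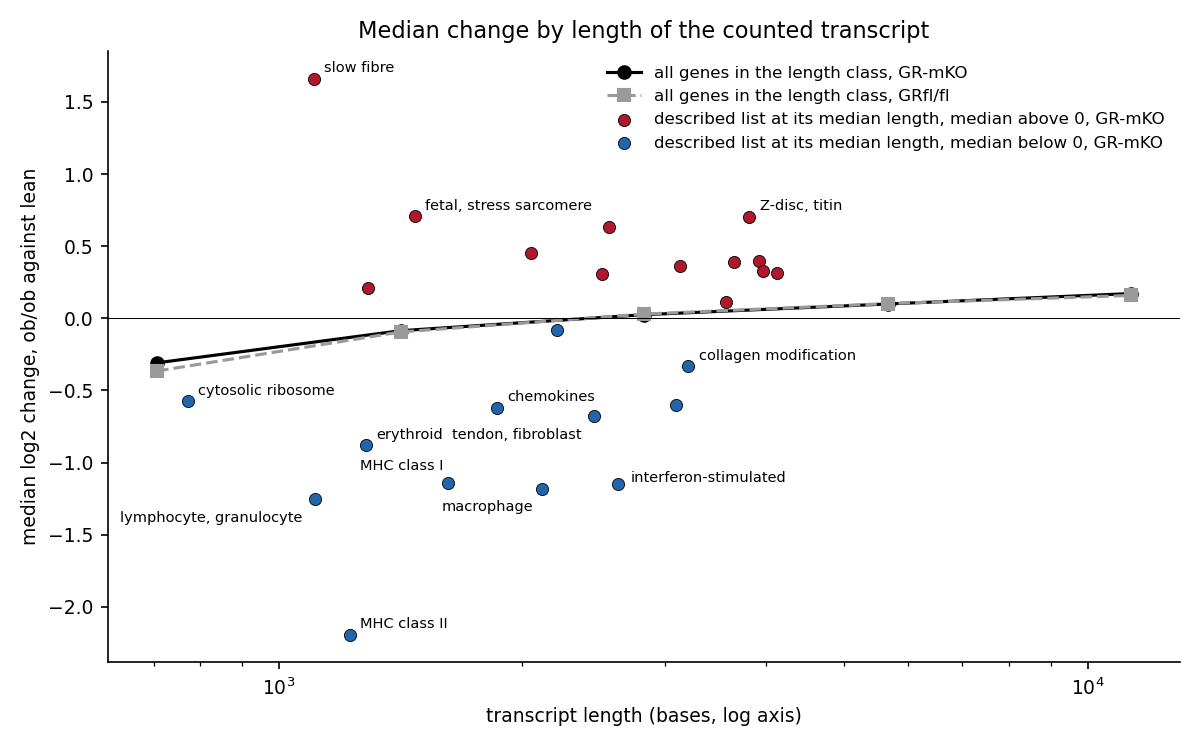
Median log2 ratio of ob/ob to lean (y axis) by length of the counted transcript (x axis, bases, log axis). Black circles and grey squares are medians of all kept genes in 5 length classes in GR-mKO and GRfl/fl mice, at -0.31 to 0.17 and -0.37 to 0.16, and coloured points are the lists that stood apart, each at its median length, with the slow fiber list at 1105 bases and 1.66 far above the line and the ribosomal list at 771 bases below it.

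Adipose genes went in opposite directions within 1 tissue sample. Of 16 kept adipocyte markers 7 were higher and 9 lower (4 and 12 with CPM), with a median of -0.12. At least 2-fold higher were 2 and at least 2-fold lower 1 (2 and 2 with CPM), and 13 were within 2-fold. The list summed to 4991 in lean and 6966 in ob/ob GR-mKO mice and to 4804 and 4585 in GRfl/fl mice. Cfd, the adipsin secreted by fat cells (GRCm38 chr10:79890853-79892655, plus strand), was at 134 in lean and 9.55 in ob/ob GR-mKO mice, 14.1-fold lower, and at 257 and 15.0 in GRfl/fl mice. Lep was 8.25-fold higher. Adipoq, chosen here after its value was seen, differed little (44.9 and 47.6). The 5 fat cell markers Adipoq, Lep, Cfd, Plin1 and Cidec summed to 239.7 and 146 in GR-mKO and to 473 and 266 in GRfl/fl mice, so that each GR-mKO sum was below the GRfl/fl sum of the same leptin genotype. The lower ob/ob sums of these 5 rest on Cfd. Without it the other 4 summed to 105 and 137 in GR-mKO and to 216 and 251 in GRfl/fl mice, a rise that lay in Lep, since the log2 ratios in GR-mKO mice were -0.28 for Plin1 and -0.35 for Cidec. The part of these markers in the ratios of Cfd and Lep was not tested.

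The 12 largest falls among genes with at least 100 counts on 1 side included Cfd, Mmp9, Oasl2 and Ifi27l2a, described above, and 2 cytochrome P450 enzymes. Cyp2e1, which oxidizes ethanol and fatty acids, was at 102 in lean and 12.7 in ob/ob GR-mKO mice and at 176 and 18.8 in GRfl/fl mice. Cyp2f2 was at 13.5 and 1.59 in GR-mKO mice and at 12.6 and 2.09 in GRfl/fl mice. Pla2g2d, a secreted phospholipase, was at 5.84 and 0.526, and Pnck, a calmodulin kinase, at 9.16 and 1.07. Both ob/ob libraries lay below both lean libraries for these 4 genes. Wdr81, a protein of endosomes, had the largest fall (12.1 to 0.703, with 14.6 and 5.66 in GRfl/fl mice). Relch (5.02 to 0.695) and Cmah (14.8 to 2.25) rested on the ob/ob GR-mKO library alone, since the other 3 libraries lay within 2-fold of one another.

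Igfn1, an eEF1A-binding protein of the Z-disc region, had the largest rise (GRCm38 chr1:135953578-136006342, minus strand). It was at 1.83 in lean and 37.9 in ob/ob GR-mKO mice, which is 39 against 741 counts, and at 4.16 and 5.17 in GRfl/fl mice, where the log2 ratio was 0.31. The ob/ob GR-mKO library was the highest and the lean GR-mKO library the lowest of the 4. Adamts8, a secreted protease with a single coding transcript, was at 0.748 and 6.95 in GR-mKO and at 1.39 and 9.47 in GRfl/fl mice. Npr3, the clearance receptor for natriuretic peptides, was at 5.69 and 28.9 in GR-mKO and at 7.92 and 52.6 in GRfl/fl mice, so both ob/ob libraries were high. Traf3, an adaptor of the TNF receptor family, was at 7.46 and 43.4 (12.5 and 27.3 in GRfl/fl mice). AW551984 was at 4.58 and 25.5 (1.77 and 2.81). Dhcr7, the last enzyme of cholesterol synthesis, and Gemin4, of the SMN complex, were high by comparison with a lean GR-mKO library that lay more than 2-fold below the other 3, at 1.66 for Dhcr7 against 10.5, 6.97 and 10.4. Over all 999 genes past 2-fold, the ob/ob GR-mKO library alone stood apart in 102 and the lean GR-mKO library alone in 41.

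A further 109 genes fell outside the rule because 1 GR-mKO library had at least 50 counts and the other fewer than 10. Of these 39 were higher and 70 lower in ob/ob GR-mKO mice, 94 were listed at 0 in the other library, and 5 had a single coding transcript. Prpf6, a splicing factor that every cell uses, was listed at 0 in lean GR-mKO mice and had 850.5 counts in ob/ob GR-mKO mice, with 563 and 867 in GRfl/fl mice. No fold is given for these genes.

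The other 45 lists had medians from -0.28 to 0.26, and for 26 of them the sign differed with CPM, so no direction is given for those. Among the 45 were glycolysis (0.11, with 0 of 22 past 2-fold), proteasome subunits (0.14, 0 of 32), insulin signaling and glucose uptake (0.14, 1 of 29), atrophy ligases and their partners (0.19, 1 of 22), the circadian clock (-0.027, 0 of 24) and mitochondrial ribosomal proteins (-0.063, 0 of 78). GR, its cofactors and its classical targets had a median of -0.056 with 2 of 29 past 2-fold. Beside the -0.58 of cytosolic ribosomal proteins (-0.78 with CPM), 41 translation factors had a median of 0.055 (-0.15 with CPM). For 20 aminoacyl-tRNA synthetases it was 0.26 (0.054 with CPM). Median transcript lengths were 771, 2025 and 2574.5 bases in that order, and the part of length in these medians was not tested.

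The same contrast in mice with muscle GR shares no library with this one, so the ratios can be set side by side gene by gene. Of the kept genes 12412 also had at least 10 counts in both GRfl/fl libraries, and across them the ratios of the 2 genotypes gave a Spearman rho of 0.49 and a Pearson r of 0.47, as a description across genes. Of the 376 genes among them that were at least 2-fold higher in ob/ob GR-mKO mice, 307 were higher at all in ob/ob GRfl/fl mice, 106 at least 2-fold, and 10 were at least 2-fold lower. Of the 559 at least 2-fold lower, 450 were lower at all, 118 at least 2-fold, and 13 were at least 2-fold higher. In GRfl/fl mice 328 and 339 of the 12412 genes were past 2-fold. List medians stood close for slow fiber proteins (1.66 in GR-mKO and 1.56 in GRfl/fl mice), the Z-disc (0.70 and 0.68), ribosomal proteins (-0.58 and -0.56) and erythroid markers (-0.88 and -1.03). They were farther apart for macrophage markers (-1.18 and -0.50), lymphocyte and granulocyte markers (-1.26 and -0.70), tendon and fibroblast markers (-0.68 and -0.087), collagens (-0.083 and 0.55) and matrix glycoproteins (-0.15 and 0.43). No test of genotype could be made on these differences with 1 library a group.

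**Figure D5:**
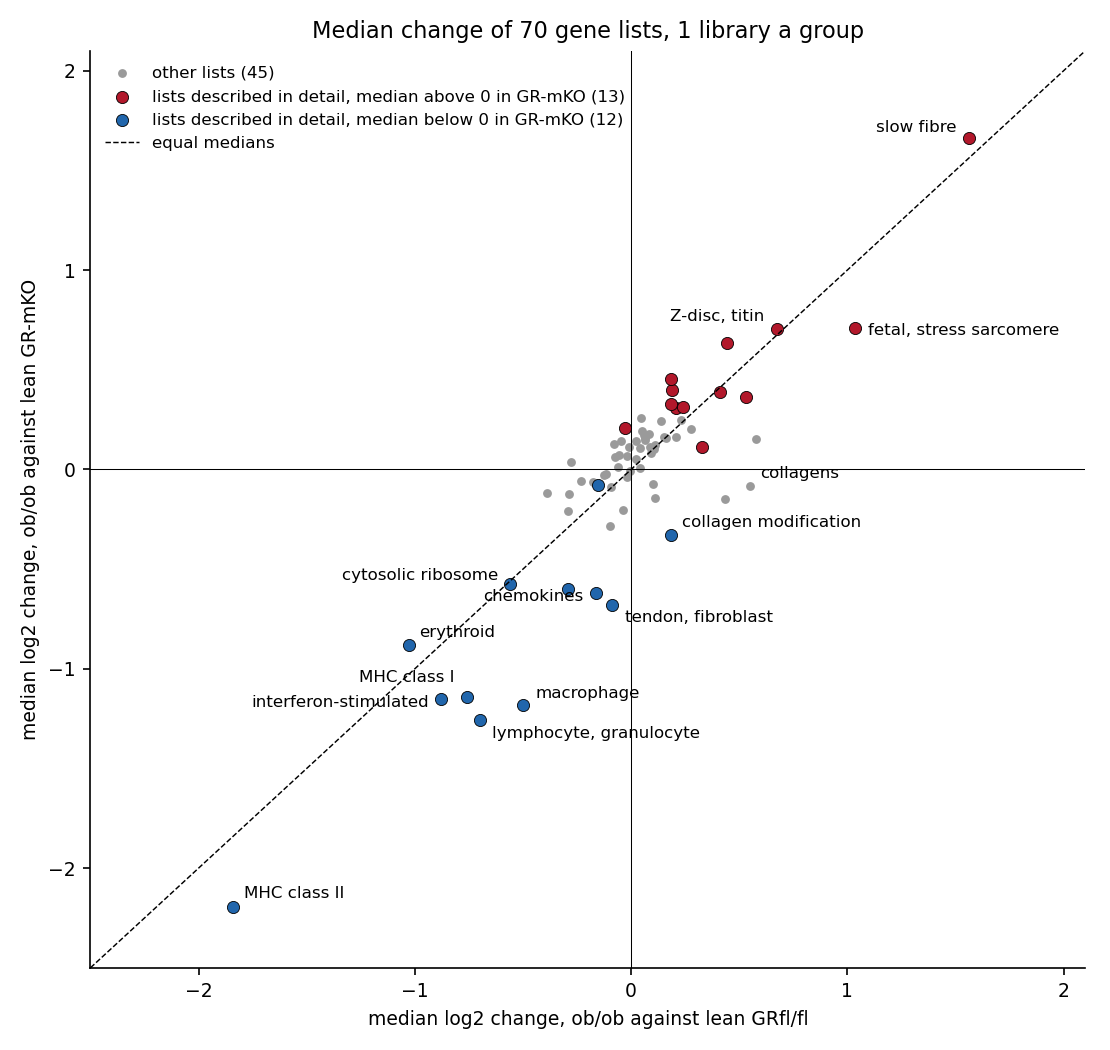
Median log2 ratio of ob/ob to lean for 70 gene lists in GRfl/fl mice (x axis) and in GR-mKO mice (y axis), with a dashed line at equal medians. Red and blue points are the 25 lists described in detail and grey points the other 45. Slow fiber, Z-disc, ribosomal and erythroid lists lie near the line, and macrophage, fibroblast and collagen lists lie below it.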

How the data were processed

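Gastrocnemius RNA of 4 groups was sequenced by the authors as 100-bp paired-end reads on a DNBSEQ-G400, 1 library per group from pooled RNA of 3 mice. The authors quantified protein-coding GENCODE transcripts with Salmon 1.2.1 and imported them with tximport (lengthScaledTPM) in R 3.5.0. Where a gene name was repeated, only its row with the highest sum was deposited. The deposited unit is the expected count, with no normalization between libraries, and the labels name mm10. Transcript lengths, numbers of transcripts and coordinates were taken from GENCODE on GRCm38, where all 22252 transcript IDs were found, and promoter windows from RefSeq.

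Expected counts, not rounded, were scaled to counts per 1000000 with TMM factors over the 4 libraries (edgeR 4.0.16 in R 4.3.3). Rounded counts were used for the scaling factors and the intervals. Genes with at least 10 counts in both GR-mKO libraries were kept, and a fold of 2 was the size rule. Intervals are exact (Clopper-Pearson) for the division of a gene's counts between the libraries, at 95%. The study called genes with NOISeq, which was not used here. With 1 library a group no test was made. Alternatives were CPM, DESeq2 1.42.0 size factors, TMM over 2 libraries, library sizes computed after removal of the 50 most abundant genes, other count minimums and folds, and, added after seeing the data, genes with 1 coding transcript or without an overlapping gene. The scripts were tested on simulated data.

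The comparison, the 70 gene lists and the motifs were chosen with earlier results of these data known. Genes were named by rule: the 12 largest ratios in each direction with at least 100 counts in 1 library, the 6 largest gains and losses of level, in each list that stood apart up to 6 members with the largest ratio and at least 50 counts and the most abundant member, and Nr3c1, Lep and Fkbp5. Of these, the text gives those a reader needs, and some genes are not reported here. Genes outside the rule were chosen after their values were seen, as exceptions, as defining markers (Csf1r) or as promoter windows (Ifit1, Bst2, Ddx60, Gbp2 and Gbp7). Python 3.11.15 with numpy 2.4.6, pandas 2.3.3, scipy 1.17.1 and matplotlib 3.10.9 was used.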

Additional observations from a re-analysis of the deposited data

How the results depend on the processing

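Scaling and filters set the counts of genes past 2-fold, which were 411 higher (3.21%) and 588 lower (4.59%) of 12807 genes. Among the same genes they became 239 and 1032 with CPM, 1370 and 1687 at 1.5-fold, and 93 and 143 at 3-fold. Among the 15013 genes with any count above 0 in both libraries they were 920 (6.13%) and 1128 (7.51%). Among the 10758 with at least 50 counts in both they were 235 (2.18%) and 282 (2.62%). The 3557 genes with a single coding transcript held 81 (2.28%) and 175 (4.92%). With CPM, of the genes named, Myh1, Myh4, Ryr1, Xirp1, Slc43a2, Sms, Kcnc1, Lox, Col1a1 and Scd1 were less than 2-fold higher and Gsn, Dcn, Eef1a1, Rsad2, Alas2 and Tek became at least 2-fold lower. Under DESeq2 size factors, TMM over the 2 GR-mKO libraries, library sizes computed after removal of the 50 most abundant genes and the exclusion of overlapping genes, they stayed within 1.5 times. Of 560 recomputed list medians 140 moved and of 768 recomputed gene values 207 did, no named gene past 2-fold changed sign, and of the 25 lists described in detail potassium channels alone changed the sign of their median (-0.095 with CPM and -0.014 without the 50 genes), whereas 26 of the 45 other lists, with medians near 0, changed sign with CPM. No paired analysis was possible because each group has 1 library, and for the same reason no library could be left out. Pooling of 3 mice before sequencing leaves the spread between mice unknown, and low counts limit single genes, such as Isg15, whose 51 and 13 counts give a log2 ratio between -2.84 and -0.94.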

Other observations

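Gene families that share the first letters of their symbols were tabulated over the kept genes, and 416 such families had at least 5 members. Those named here were chosen after their values were seen, and most add to groups already described. Genes with a C-type lectin symbol (Clec), which take in receptors of myeloid cells such as Clec7a but also Clec3b, the tetranectin gene described with the fibroblast markers, had a median log2 ratio of -1.25 in ob/ob against lean GR-mKO mice, with 8 of 14 at least 2-fold lower and 1 at least 2-fold higher, and a median of -0.59 in GRfl/fl mice. Guanylate-binding proteins (Gbp), which attack vacuoles of pathogens, stood at -1.24 (5 of 7 at least 2-fold lower) and at -0.54 in GRfl/fl mice. CC chemokines (Ccl) gave -1.08, with 6 of 11 at least 2-fold lower. Glutathione peroxidases (Gpx), which remove peroxides, had a median of -0.84 with 1 of 5 at least 2-fold lower. At the other end, 8 of 11 kept myosin heavy chain genes (Myh) were at least 2-fold higher, with medians of 1.26 in GR-mKO and 1.05 in GRfl/fl mice. With CPM, Myh1 and Myh4 were less than 2-fold higher. Myh3 and Myh13 were not kept and went the other way in GR-mKO mice. They had 77.2 and 59.2 counts in lean and were listed at 0 in ob/ob GR-mKO mice. In GRfl/fl mice Myh3 had 22.1 counts in lean and 142 in ob/ob, and Myh13 had 0 and 55.4. Inward rectifier potassium channels (Kcnj), which set the resting potential, had a median of 0.70 over 5 members, against the mixed result for potassium channels as a whole. Of these 5, 1 was at least 2-fold higher and the lowest ratio was -0.29, and the GRfl/fl median was 0.44. The Kcna and Kcnk families had medians of 0.095 and -0.24 in GR-mKO mice.

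Single genes of lists that did not stand apart also passed 2-fold and were chosen after their values were seen. Elovl6, which elongates fatty acids, was at 5.48 in lean and 16.8 in ob/ob GR-mKO mice and at 4.87 and 11.9 in GRfl/fl mice. Scd1, the desaturase that makes oleate, was at 425 and 977 in GR-mKO mice and at 766 and 1084 in GRfl/fl mice, and was just under 2-fold higher in GR-mKO mice with CPM. Both are lipogenic enzymes, a list whose median was 0.16. Chac1, a glutathione-degrading enzyme of the integrated stress response, was lower (39.6 and 16.7 in GR-mKO mice, 99.6 and 20.2 in GRfl/fl mice), with the lean GRfl/fl library the highest of the 4. Hsd11b1, which regenerates active glucocorticoid in the cell, was at 15.4 and 5.53 in GR-mKO mice and at 15.1 and 9.69 in GRfl/fl mice. Nr4a3, an immediate early nuclear receptor, was at 6.19 and 20.4 in GR-mKO mice and at 20.6 and 17.5 in GRfl/fl mice, so that lean GR-mKO muscle alone was low.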
